A study of Oncorhynchus mykiss with 6 samples.

Results

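The let-7 microRNAs (miRNAs) of rainbow trout liver were taken as every sequence of the deposited miRNA table whose name holds let-7, in any letter, arm and form. There were 68 such sequences among the 1389 of the table. They held 770419 expected counts, 6.76% of all counts in the table, and fell into 10 letters (let-7a to let-7j). The main arm, the 5' strand of the hairpin, had 37 sequences and the 3p arm, the opposite strand, had 31.

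Libraries of small RNA were made from the livers of juvenile wild-type rainbow trout (Oncorhynchus mykiss), with 1 library per fish. Size-matched fish were held in dyads for 4 d, in which 1 fish became socially dominant (SD) and the other socially subordinate (SS). Libraries came from 3 SS fish (4A, 6A and 1B) and 3 SD fish (4B, 6B and 21A). Per the study's methods, food intake differed between the groups, since SS fish got little or none of the ration over the 4 d, and plasma cortisol was higher in SS fish. Social status, feeding and cortisol therefore cannot be told apart in the comparison of SS with SD.

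The let-7 miRNAs are among the most conserved miRNAs of animals and were first found in the nematode Caenorhabditis elegans, where loss of let-7 delays the larval-to-adult switch. Members share the seed, the bases near the 5' end that pair with target mRNAs, and differ mainly in the bases after it. In mammals let-7 is abundant in differentiated tissues, LIN28 blocks its maturation, its targets include Hmga2, Trim71 and components of insulin signalling, and mice with forced let-7 expression have impaired glucose tolerance.

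The most abundant main-arm sequence of each letter is shown because the comparisons below turn on how the letters differ after the shared seed. The capitals mark bases 2 to 8, and the deposited table writes T for U.
dre-let-7a: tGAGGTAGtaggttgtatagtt
dre-let-7b: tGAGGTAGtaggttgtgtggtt
dre-let-7c-5p_1ss19GC: tGAGGTAGtaggttgtatcgtt
dre-let-7d-5p: tGAGGTAGttggttgtatggtt
fru-let-7e: tGAGGTAGtagattgaatagtt
dre-let-7f_R-1: tGAGGTAGtagattgtatagt
dre-let-7g: tGAGGTAGtagtttgtatagtt
fru-let-7h: tGAGGTAGtaagttgtgttgtt
dre-let-7i: tGAGGTAGtagtttgtgctgtt
hhi-let-7j: tGAGGTAGttgtttgtacagtt
The prefix of a name is the fish species whose miRNA the authors matched, such as dre for zebrafish, fru for fugu, hhi for Atlantic halibut, ssa for Atlantic salmon, ola for medaka and pol for Japanese flounder. Endings with R or L give bases gained or lost at the 3' or the 5' end against that species' miRNA, and endings with ss give substituted bases.

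Counted from 1 at the 5' end, with the let-7a base first, dre-let-7g differed from dre-let-7a by G12T alone and the let-7c form by A19C alone. dre-let-7b differed by A17G and A19G, dre-let-7d-5p by A10T and A19G, and fru-let-7e by G12A and T16A. hhi-let-7j carried A10T, G12T and T18C, fru-let-7h carried G11A, A17G and A19T, and dre-let-7i carried G12T, A17G, T18C and A19T. The seed GAGGTAG stood at bases 2 to 8 in 26 of the 37 main-arm sequences, which held 99.997% of the main-arm counts. It was shifted along in 8 further sequences with 20.7 counts and was missing from 3 with 4.33 counts. No sequence of the table outside let-7 had GAGGTAG at bases 2 to 8.

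The 3p sequences that the results turn on are shown with their own seeds in capitals, since the 3p strand has other seeds and can tell apart hairpins whose main arm is identical.
ssa-let-7a-4-3p: cTATACAGtctattgccttcct
ssa-let-7f-3p_R+1_2ss8AG22CT: cTATACAGtctattgccttcctt
ola-let-7g-p3: cTATACAGtctactgtctttct
pol-let-7a-3p_R+1_1ss3AG: cTGTACAAcctactgccttcct
dre-let-7a-2-p3_1ss3GA: cTATACAAcctcctagctttcc
ssa-let-7e-3p_1ss22CT: cTATACAAtctactgtctttct
ssa-let-7e-3p_L+3R-2: tAACTATAcaatctactgtcttt
ssa-let-7h-3p: cTATACAActtactgccttcct
fru-let-7i-p3_1ss9GA: cTGCGCAAactactgccttgct
The seed TATACAA held 46.4% of the 3p counts (9 sequences, from let-7a, let-7b, let-7e and let-7h), TATACAG held 27.0% (3 sequences, from let-7a, let-7f and let-7g) and TGTACAA held 17.8% (2 sequences, from let-7a and let-7c). The let-7i seed TGCGCAA held 4.84%.

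Some names and sequences went apart. The sequence named ssa-let-7f-3p_R+1_2ss8AG22CT was that of ssa-let-7a-4-3p with 1 more base at the 3' end and no substitution. The sequence dre-let-7a_1ss12GA, with 148.6 counts (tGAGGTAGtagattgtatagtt), equalled dre-let-7f_R-1 with 1 more base at the 3' end, and it held more counts than all 3 sequences named let-7f on the main arm (37.2). In all, 5 of the 34 main-arm sequences with the seed were closer to the main form of another letter than to their own, and they held 207 counts. The main forms themselves could not be found so, since each was the reference of its own letter. The main form of let-7c, dre-let-7c-5p_1ss19GC, is by its name substituted at base 19 against zebrafish let-7c. It differs from dre-let-7a at that base alone, so its letter rests on the name.

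The table counts per library ranged from 1183289 (SD 4B) to 3382970 (SD 21A), and let-7 took 6.02% to 7.09% of them in SS fish and 6.70% to 8.23% in SD fish. The counts are expected counts, in which reads matching more than 1 sequence are divided among the matches. Of the 68 let-7 sequences 42 had fractional counts, so the split between near-identical forms is uncertain. Normalized reads are these counts divided by the authors' size parameter for each library. The liver label was checked on miR-122, the hepatocyte miRNA, which took 35.7% to 40.4% of the counts of every library. Summed erythrocyte miRNAs (miR-144 and miR-451, 8 sequences) lay at 7856, 1822 and 3985 normalized reads in SS fish and 6719, 4950 and 5752 in SD fish, and leukocyte miRNAs (miR-142, miR-150, miR-155 and miR-223, 18 sequences) at 1966 ± 182 (SD, n = 3) and 2017 ± 470 (SD, n = 3). Both overlapped between the groups, and their part in the results below was not tested. In whole liver, fewer cells of a type and less let-7 RNA per cell cannot be told apart.

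The family was dominated by a few sequences of its main arm. The main arm held 98.97% of the let-7 counts, dre-let-7a alone held 55.4%, and the top 4 sequences (dre-let-7a, fru-let-7e, hhi-let-7j and dre-let-7g) held 90.1%. At the other end, 30 sequences had fewer than 10 counts in total and held 64.7 counts together. The filter on low counts (minimum count 10) left 26 let-7 sequences for the test, 15 of the main arm and 11 of the 3p arm. The 42 that it removed held 347 counts in all and at most 43.8 each.

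**Figure D1:**
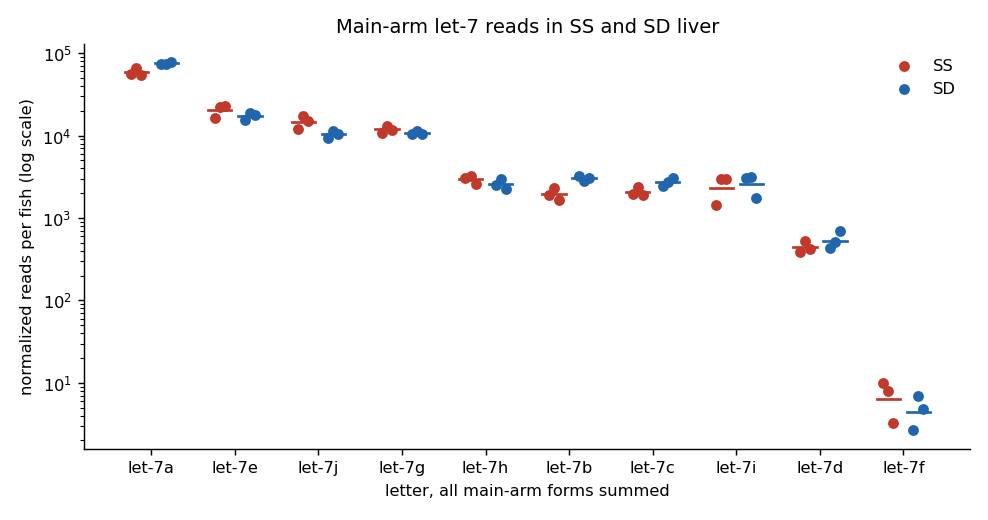
Normalized reads of the main arm in each fish (log scale), all forms of a letter summed, with letters in order of their total, points for the 3 SS (red) and 3 SD (blue) fish and a line at the geometric mean. The levels span from 77306 normalized reads of let-7a in 1 SD fish to fewer than 10 for let-7f, and the SS and SD points of let-7a, let-7b, let-7c and let-7j stand apart.

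Whether the liver of SS fish held more or less let-7 than that of SD fish was asked first of the family as a whole. Summed main-arm normalized reads came to 104101 (4A), 130191 (6A) and 113287 (1B) in SS and to 121916 (4B), 127165 (6B) and 126694 (21A) in SD fish. By this scaling the highest fish of all was an SS fish, and the groups overlapped. As a percentage of the table counts, let-7 of both arms was highest in SD 4B, at 8.23%. The groups overlapped there too, with 7.09% in SS 1B and 6.70% in SD 21A. The log2 fold change of the sum (SS over SD) was -0.15 with a standard error of 0.15, and without SS 4A, the lowest fish, it was -0.02. The difference in the family total was thus within the spread between fish.

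Per sequence, the fitted direction differed between letters, a difference that was not itself tested. Of the 26 tested let-7 sequences none passed the adjusted threshold of 0.05 (edgeR's quasi-likelihood test, p-values adjusted by Benjamini-Hochberg over all tested sequences), where 0.592% of all 338 tested sequences did (2 of 338). DESeq2 called none of them either. At an unadjusted p under 0.05, 4 were lower in SS fish (dre-let-7a, dre-let-7b, pol-let-7a-3p_R+1_1ss3AG and dre-let-7a-2-p3_1ss3GA) and 1 was higher (hhi-let-7j), where 4.14% and 6.51% of all tested sequences were lower and higher. dre-let-7b remained under 0.05 whichever fish was left out. Of the 4, 2 remained without SS 4A, SD 6B or SD 21A, 1 without SS 1B and 3 without SS 6A or SD 4B, and dre-let-7a remained only without SD 4B. hhi-let-7j was no longer under 0.05 without SS 6A, SS 1B, SD 4B or SD 21A. With the authors' own size parameters, RLE size factors or DESeq2, 3 of the 4 remained and dre-let-7a did not.

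By the fish themselves, every SS fish lay below every SD fish in normalized reads for 8 of the 26 let-7 sequences, against 7.69% of all tested sequences. Apart from dre-let-7b and the let-7c form, the 8 were let-7a sequences of either arm. Among these is ssa-let-7f-3p_R+1_2ss8AG22CT, which has the sequence of ssa-let-7a-4-3p with 1 more base. The 8 thus count let-7a several times, as do the counts and medians below. The reverse, all SS fish above all SD fish, held for 2 of 26, against 10.7%. Fitted log2 fold changes were below 0 for 17 of 26, against 50.3% of all tested sequences, with a median of -0.32 (range -1.01 to 0.83) beside -0.02 over all 338. The 15 main-arm sequences had a median of -0.33 and the 11 3p sequences one of -0.31. The study had chosen let-7a, let-7b, let-7c and a minor form of let-7j as changed on these same libraries, so their directions are not independent evidence. By real-time RT-PCR the study also found let-7a lower in SS fish, a difference it called marginally significant.

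**Figure D2:**
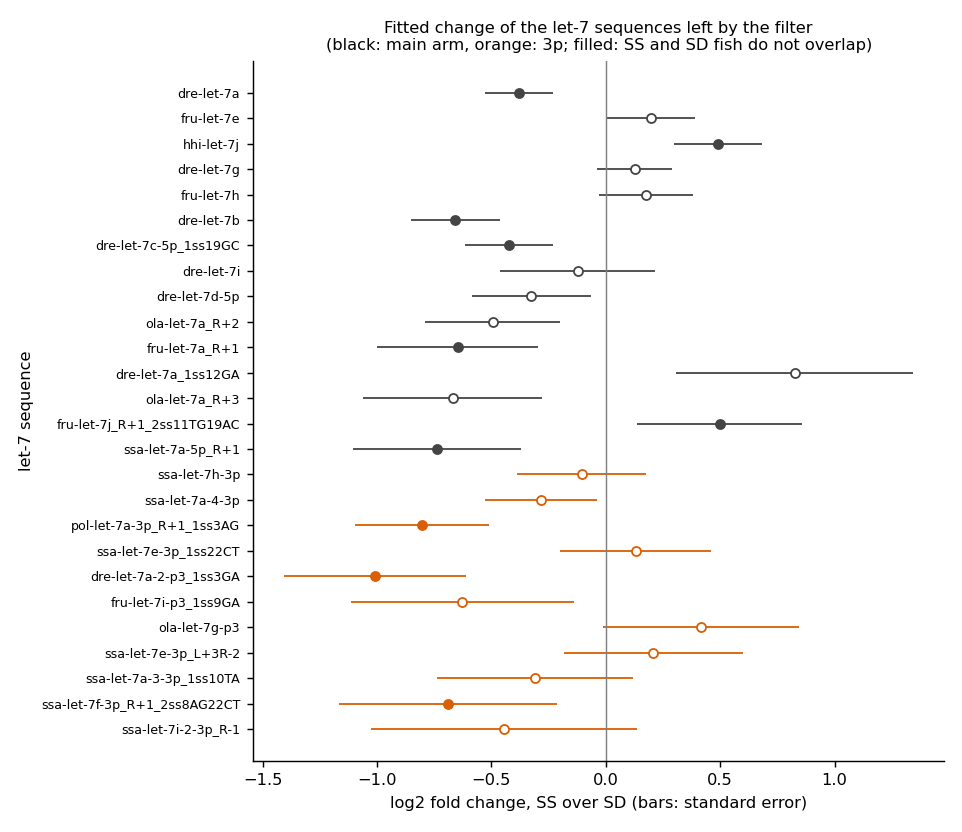
Fitted log2 fold change (SS over SD, x axis) with its standard error for each of the 26 let-7 sequences tested (y axis), main arm in black and 3p in orange, each in order of abundance. Filled points are the 10 sequences whose SS and SD fish do not overlap, and 8 of these lie below 0.

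let-7a, the founding sequence of the family and identical in nematode and man, was lower in SS fish. dre-let-7a had 56008 (4A), 65879 (6A) and 53892 (1B) normalized reads in SS fish and 74457 (4B), 73160 (6B) and 77096 (21A) in SD fish. Values below keep this order of fish. The SD fish lay close together, and the highest SS fish was below the lowest of them. The log2 fold change was -0.38 ± 0.15 (SE), with an adjusted p of 0.42 by edgeR's quasi-likelihood test.

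Among the other letters, let-7b and let-7c were lower in SS fish as well. dre-let-7b had 1907, 2291 and 1664 normalized reads in SS fish and 3262, 2775 and 3060 in SD fish. Its log2 fold change was -0.66 ± 0.19 (SE). This had the lowest adjusted p of all let-7 sequences, 0.29 by edgeR's quasi-likelihood test. The let-7c form had 1944, 2361 and 1906 in SS fish and 2467, 2704 and 3022 in SD fish, and the fitted value was -0.42 ± 0.19 (SE, edgeR's quasi-likelihood test, adjusted p = 0.45). In neither did any SS fish reach the lowest SD fish. The let-7c form has its letter from its name and is 1 base from dre-let-7a.

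let-7j went the other way. hhi-let-7j had 12040, 17315 and 15173 normalized reads in SS fish against 9355, 11436 and 10293 in SD fish, so that the lowest SS fish was above the highest SD fish. The log2 fold change was 0.49 ± 0.19 (SE, edgeR's quasi-likelihood test, adjusted p = 0.42). A second let-7j sequence, fru-let-7j_R+1_2ss11TG19AC, which carries A19C against hhi-let-7j and 1 more base at its 3' end, had 20.7, 27.9 and 22.8 against 13.3, 18.9 and 16.6 normalized reads. With counts divided by mappable reads instead, both overlapped between the groups, and the count of let-7 sequences with all SS fish above all SD fish was then 0 of 26, with 7 of all 338.

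The other letters overlapped between the groups. fru-let-7e, the second most abundant sequence, had 16356, 22095 and 22716 normalized reads in SS fish and 15553, 18928 and 17946 in SD fish (log2 fold change 0.20 ± 0.19, SE). dre-let-7g had 10772, 13208 and 11774 against 10528, 11338 and 10344 (0.13 ± 0.17, SE), and fru-let-7h had 3045, 3243 and 2585 against 2527, 2961 and 2225 (0.18 ± 0.20, SE). In these 3 the mean of the SS fish was the higher one, but SS 4A for let-7e and let-7g and SS 1B for let-7h lay within the SD range.

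dre-let-7i and dre-let-7d-5p had fitted values below 0. dre-let-7i had 1437, 2981 and 2974 normalized reads in SS fish and 3021, 3105 and 1772 in SD fish, where SS 4A and SD 21A were the low ones, and a fitted value of -0.12 ± 0.34 (SE). dre-let-7d-5p had 379, 513 and 418 against 427, 502 and 682 (-0.33 ± 0.26, SE). dre-let-7f_R-1 was close to absent, at 6.02, 5.33 and 3.25 against 2.33, 5.30 and 3.62, and was not left by the filter.

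In order of SD levels, let-7a was followed by let-7e, let-7g, let-7j, let-7b, let-7c, let-7i, let-7h, let-7d and let-7f. In SS fish let-7j stood ahead of let-7g, and let-7h ahead of let-7i, let-7c and let-7b. Summed over their forms, let-7g and let-7j had 10738 ± 530 and 10391 ± 1044 normalized reads in SD fish (SD, n = 3), which did not differ beyond their spread. They had 11921 ± 1227 and 14878 ± 2657 in SS fish. The 4 scarcer letters b, c, h and i lay within 2571 to 3033 in SD fish and 1955 to 2958 in SS fish.

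Sums by letter and arm were fitted again, because they depend less on how reads are split between forms. Of the 19 sums 15 were left by the filter and none passed the adjusted threshold, where 0.612% of the 327 features did. At an unadjusted p under 0.05 there were 2, let-7b of the main arm, lower in SS fish as were 2.14% of all 327, and let-7j of the main arm, higher as were 7.34%. let-7b remained whichever fish was left out, and let-7j only without SS 4A. let-7b had a log2 fold change of -0.63 ± 0.20 (SE, edgeR's quasi-likelihood test, adjusted p = 0.31), let-7j of 0.53 ± 0.20 (SE, adjusted p = 0.36), let-7a of -0.35 ± 0.16 (SE, adjusted p = 0.46) and let-7c of -0.39 ± 0.20 (SE, adjusted p = 0.49). The SS and SD fish did not overlap in any of these 4 sums. They did not overlap in let-7a and let-7f of the 3p arm either, where SS fish were lower. The let-7f sum of the 3p arm is 1 sequence, ssa-let-7a-4-3p with 1 more base, so by sequence it is not a second letter. No like count over the 327 features was made. Per sequence, every SS fish lay below every SD fish in 7.69% of the 338 tested sequences and above in 10.7%.

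The composition of the family, which needs no library size, was compared next. let-7a made up 54.0%, 50.8% and 47.7% of main-arm let-7 reads in SS fish and 61.3%, 57.7% and 61.0% in SD fish. Every SS fish was below every SD fish, with means of 50.8% ± 3.13 and 60.0% ± 2.01 (SD, n = 3), a difference of -9.19 percentage points. The two-sided exact permutation test gave p = 0.1, the smallest that 3 fish against 3 allow, so no share could pass 0.05. Leaving out any 1 fish kept the difference between -10.8 and -7.63 points.

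The shares of let-7j, let-7e and let-7g were higher in SS fish. let-7j made up 11.6%, 13.3% and 13.4% in SS fish against 7.70%, 9.02% and 8.15% in SD fish, and let-7e 15.7%, 17.0% and 20.1% against 12.8%, 14.9% and 14.2%. let-7g was at 10.3%, 10.1% and 10.4% in SS fish and 8.64%, 8.92% and 8.17% in SD fish. In these 3 letters no SD fish reached the lowest SS fish (p = 0.1 in each, two-sided exact permutation test).

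let-7b and let-7c had lower shares in SS fish, as let-7a did. let-7b made up 1.83%, 1.76% and 1.47% in SS fish against 2.68%, 2.18% and 2.42% in SD fish, and let-7c 1.87%, 1.81% and 1.68% against 2.02%, 2.13% and 2.39%. The shares of let-7h, let-7d, let-7f and let-7i overlapped between the groups. Of the 10 shares compared, 6 did not overlap, and no like count over all tested sequences was made. Shares add up to 100%, so a lower share of let-7a raises the others by construction. The 6 are therefore not separate results, and ratios between letters were taken as well.

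**Figure D3:**
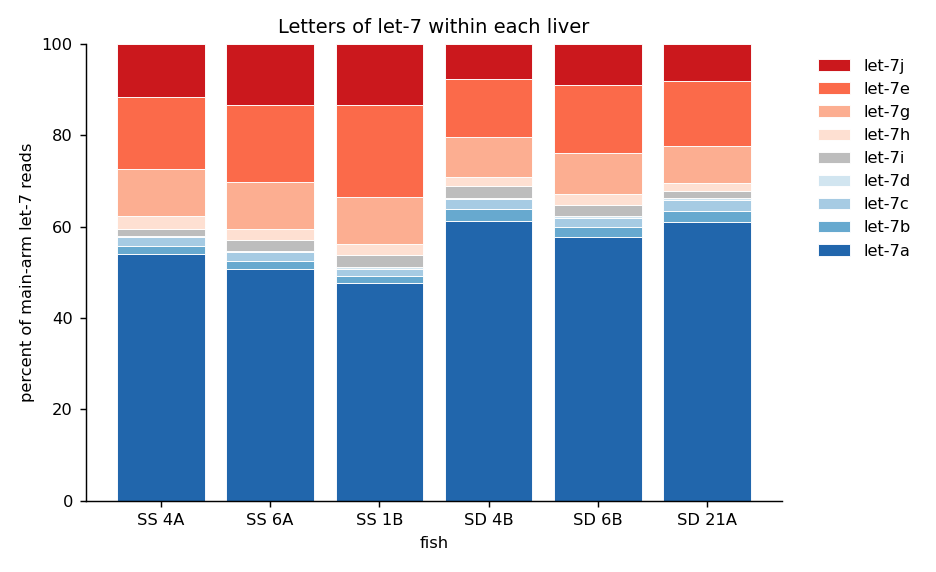
Share of main-arm let-7 reads (percent, y axis) held by each letter in each of the 6 fish (x axis), stacked from let-7a at the bottom, with let-7f left out since it is under 0.01%. The dark blue let-7a block ends between 47.7% and 54.0% in SS fish and between 57.7% and 61.3% in SD fish, and the red let-7j block on top is thicker in SS fish.

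Per 100 let-7a reads, SS fish had 21.5, 26.2 and 28.1 let-7j reads and SD fish 12.6, 15.6 and 13.3, a ratio that was 1.82-fold higher in SS fish. let-7e had 29.1, 33.4 and 42.0 against 20.8, 25.8 and 23.2, and let-7g 19.2, 20.0 and 21.8 against 14.1, 15.5 and 13.4. let-7h, at 5.42, 4.90 and 4.78 against 3.38, 4.04 and 2.88, joined them, although its share alone overlapped. These folds were 1.49 for let-7e, 1.42 for let-7g and 1.48 for let-7h.

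Of the 9 letters set against let-7a, 4 (let-7e, let-7g, let-7h and let-7j) thus had a higher ratio in each SS fish than in any SD fish. Over all other tested sequences 24.0% did so against dre-let-7a, since let-7a itself was lower in SS fish. let-7b was the 1 letter with every SS fish below every SD fish, at 3.40, 3.47 and 3.08 reads per 100 let-7a reads against 4.37, 3.78 and 3.96. No like count over all tested sequences was made in this direction. let-7c, at 3.46, 3.57 and 3.53 against 3.30, 3.69 and 3.91, kept its ratio to let-7a within the spread between fish, with a log2 difference of -0.04. let-7d, let-7f and let-7i overlapped too.

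All 36 pairs of 9 letters (let-7f left out) were then compared by their ratio within a fish. In 20 pairs (55.6%) the SS and SD fish did not overlap, where 17.0% of all 56953 pairs of tested sequences did not. The 36 ratios reuse the same 9 letters and are not independent of one another. The 56953 pairs also include sequences far scarcer than any of the 9 letters, so the 2 percentages are not strictly alike. The letters fell into 2 sets, formed after their values were seen and so given no test. Each of the 16 ratios between a letter of the set let-7a, let-7b, let-7c and let-7d and a letter of the set let-7e, let-7g, let-7h and let-7j was lower in every SS fish than in every SD fish. Within the sets 4 of 12 ratios did not overlap, and with let-7i 0 of 8. The counts were the same with the most abundant form of each letter alone.

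The widest ratio was that of let-7b to let-7j. It was 0.158, 0.132 and 0.109 in SS fish and 0.348, 0.242 and 0.297 in SD fish, a difference of -1.15 in mean log2 ratio. Within the second set let-7j was also higher against let-7e and let-7g (not let-7h, which overlapped), with 1.36, 1.27 and 1.49 let-7e reads per let-7j read in SS fish and 1.66, 1.65 and 1.74 in SD fish. let-7e to let-7h and let-7e to let-7g, with differences of 0.01 and 0.07, overlapped.

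**Figure D4:**
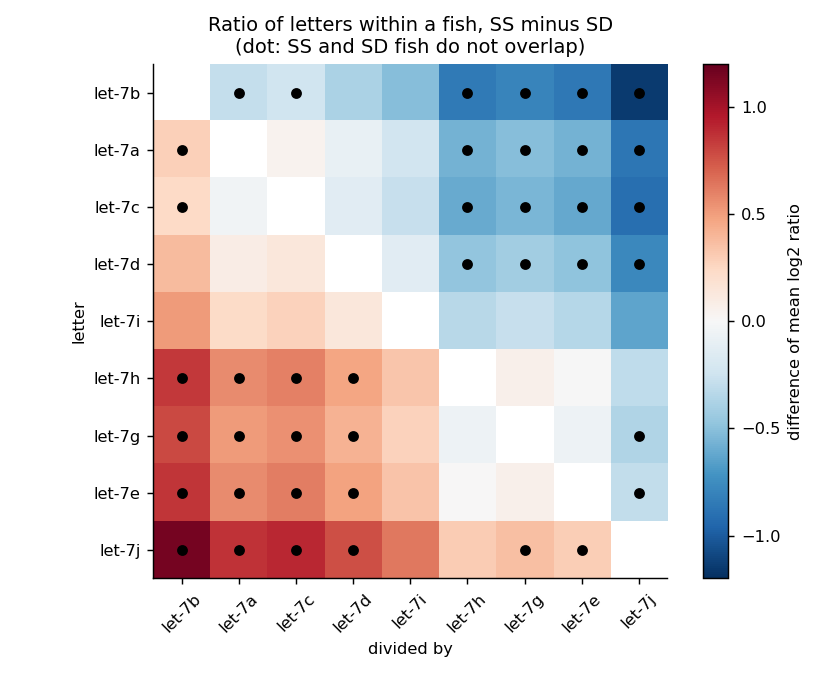
Difference between SS and SD fish in the mean log2 ratio of the letter of a line to the letter of a column, within each fish, blue where the ratio was lower in SS fish and red where it was higher, with a dot where the SS and SD fish do not overlap. Dots fill the upper right and lower left corners, where 16 of 16 pairs of a letter among let-7a to let-7d and a letter among let-7e, let-7g, let-7h and let-7j stand apart, and let-7i has none.

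Together let-7a, let-7b, let-7c and let-7d held 58.0%, 54.8% and 51.2% of main-arm reads in SS fish and 66.4%, 62.4% and 66.4% in SD fish. let-7e, let-7g, let-7h and let-7j held 40.6%, 42.9% and 46.2% in SS fish and 31.2%, 35.1% and 32.2% in SD fish. The sets were formed from the ratios of these same fish, so the gap in their sums is no separate result. let-7a alone made up most of the first set, at 54.0%, 50.8% and 47.7% in SS and 61.3%, 57.7% and 61.0% in SD fish. Apart from let-7i and let-7f, the second set is what the first leaves. In sequence, let-7a, let-7b, let-7c and let-7d share G at both of bases 11 and 12. let-7e, let-7g, let-7h and let-7j each have another base at 1 of them. let-7i and let-7f also lack this pair of bases, so it does not separate the sets from let-7i, whose ratios overlapped.

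The 3p strand was scarce. It held 1230, 1088 and 1131 normalized reads in SS fish and 1840, 1160 and 1179 in SD fish, with SD 4B well above the other 5 fish. The log2 fold change of its sum was -0.32 ± 0.25 (SE), and without SD 4B it was -0.13. Per 100 main-arm reads there were 1.01 ± 0.173 3p reads in SS fish and 1.12 ± 0.340 in SD fish (SD, n = 3), and the groups overlapped (p = 0.7, two-sided exact permutation test). Without SD 4B the log2 difference of this ratio turned from -0.13 to 0.11.

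The arm ratio depended far more on the letter than on social status. let-7h had 10.5 ± 1.99 3p reads per 100 main-arm reads in SS fish and 12.9 ± 3.91 in SD fish (SD, n = 3), and let-7i had 2.40 ± 1.49 and 2.88 ± 1.33 (SD, n = 3). let-7e lay at 1.11 ± 0.161 and 1.19 ± 0.580, let-7a at 0.835 ± 0.109 and 0.946 ± 0.211, and let-7g at 0.465 ± 0.172 and 0.376 ± 0.177 (SD, n = 3). In none of the 6 ratios compared were SS and SD fish apart, with exact permutation p from 0.5 to 1. By total counts the 3p strand of let-7h was thus the most abundant single 3p sequence although 4 letters had a more abundant main arm. By mean normalized reads in SD fish let-7b, let-7c and let-7i had a more abundant main arm too.

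**Figure D5:**
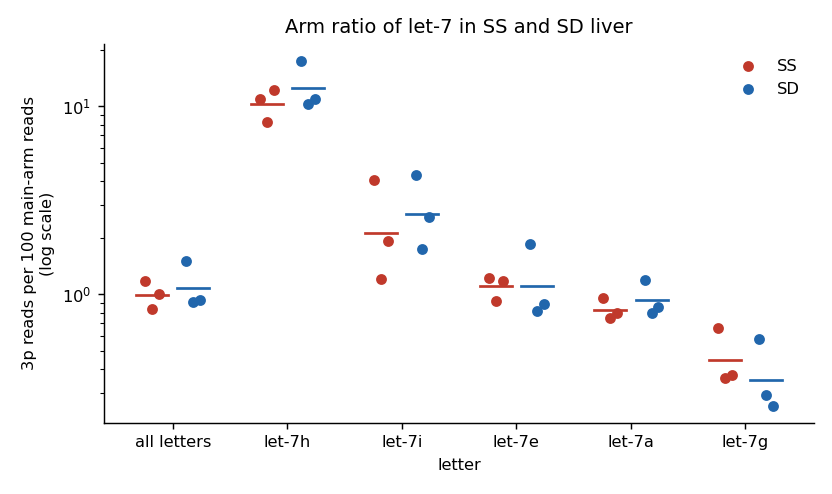
3p reads per 100 main-arm reads (log scale) in each SS (red) and SD (blue) fish for all letters and for the 5 letters with at least 10 reads on both arms in every fish, with a line at the geometric mean. let-7h lies between 8.29 and 17.4 and let-7g below 0.7, and the SS and SD points overlap in every letter.

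Summed by letter as named, 3p reads of let-7a and let-7f were lower in every SS fish than in every SD fish. The only 3p sequence named let-7f is ssa-let-7a-4-3p with 1 more base, so by sequence both sums are let-7a. The 11 3p sequences of let-7a summed to 539, 498 and 429 normalized reads in SS fish and 886, 580 and 665 in SD fish. Their log2 fold change was -0.53 ± 0.25 (SE, edgeR's quasi-likelihood test, adjusted p = 0.46). The 3p sums of let-7f, let-7i and let-7h were also below 0, at -0.66 ± 0.49, -0.57 ± 0.46 and -0.09 ± 0.28 (SE). Those of let-7e and let-7g were above 0. All 3p sums but let-7a and let-7f overlapped between the groups. pol-let-7a-3p_R+1_1ss3AG had 168, 189 and 128 in SS fish against 369, 208 and 258 (log2 fold change -0.80 ± 0.29, SE, adjusted p = 0.41). dre-let-7a-2-p3_1ss3GA had 60.9, 50.4 and 22.8 against 83.9, 88.0 and 93.6, the largest fitted difference of the 26, at -1.01 ± 0.40 (SE, adjusted p = 0.42). Its counts were whole numbers, and whether any read was shared with another sequence could not be seen from them.

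The most abundant let-7a 3p sequence, ssa-let-7a-4-3p, had 268, 230 and 237 normalized reads in SS fish and 362, 249 and 274 in SD fish, with overlap (log2 fold change -0.28 ± 0.25, SE). The same sequence with 1 more base, named ssa-let-7f-3p_R+1_2ss8AG22CT, had 22.7, 21.6 and 6.66 against 26.7, 25.7 and 28.2, with every SS fish lower (-0.69 ± 0.48, SE). All 4 let-7a 3p sequences tested, which differ in sequence from one another, had fitted values below 0, and 2 of them overlapped between the groups.

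The most abundant 3p sequences of let-7h, let-7e, let-7g and let-7i overlapped between the groups. ssa-let-7h-3p had 331, 269 and 312 normalized reads in SS fish and 433, 300 and 239 in SD fish, and ssa-let-7e-3p_1ss22CT had 164, 162 and 209 against 236, 117 and 131. ola-let-7g-p3 had 70.6, 47.5 and 42.8 against 61.0, 33.0 and 26.5, and fru-let-7i-p3_1ss9GA had 44.6, 27.4 and 46.6 against 103, 48.9 and 32.7. SD 4B was the highest SD fish in each of these 4. The scarce ola-let-7b-1-p3_1ss10CT and dre-let-7c-3p, with 23.5 and 22.3 counts in all, lay between 1.22 and 7.13 normalized reads in every fish and were not tested.

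A form of let-7e 3p began 3 bases upstream. ssa-let-7e-3p_L+3R-2 had 3 more bases at its 5' end than ssa-let-7e-3p_1ss22CT and no substitution, so that its bases 2 to 8 read AACTATA instead of TATACAA. It made up 18.2%, 20.8% and 21.99% of let-7e 3p reads in SS fish and 18.3%, 23.8% and 18.3% in SD fish. The groups overlapped, with means of 20.3% ± 1.95 and 20.1% ± 3.18 (SD, n = 3).

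Forms of let-7a with bases added at the 3' end, which can arise from uneven cutting of the hairpin or from added nucleotides, were rare. The 6 such forms, taken by name, held 1122 counts, and ola-let-7a_R+2, which ends in a run of T, held 649 of them. 1 of the 6, dre-let-7a_R+1_1ss12GA with 13.0 counts, is nearest to let-7f by sequence. The 6 forms made up 0.236%, 0.276% and 0.230% of let-7a main-arm reads in SS fish and 0.349%, 0.264% and 0.246% in SD fish (p = 0.4, two-sided exact permutation test), with overlap. The difference of the means was -0.039 percentage points, and without SD 4B, the fish with the highest share, it was -0.0076.

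In normalized reads these forms followed the let-7a sequence itself. ola-let-7a_R+2 had 82.0, 108 and 74.4 in SS fish against 153, 109 and 105 in SD fish, and ola-let-7a_R+3 had 11.9, 24.7 and 14.2 against 29.3, 27.3 and 22.6. fru-let-7a_R+1 had 26.6, 36.5 and 24.5 against 53.4, 37.4 and 43.4, and ssa-let-7a-5p_R+1, which ends in G, had 10.5, 12.01 and 10.5 against 21.8, 15.2 and 17.4. In the R+1 forms every SS fish was below every SD fish. As a share of let-7a reads this remained so only for ssa-let-7a-5p_R+1, at 0.0188% ± 0.0006 and 0.0241% ± 0.00448 (SD, n = 3, p = 0.1, two-sided exact permutation test).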

How the data were processed

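Per the study's methods, the authors trimmed the 3' adaptor, kept inserts of 15 to 32 nt and mapped them with Bowtie (the submitters' processing notes give version 1.1.1) to fish miRNAs of miRBase. The deposited table holds expected counts, in which a read fitting several sequences is shared, and a normalized signal (normalized reads), which is the count divided by a size parameter per library. A second deposited table holds counts of raw and mappable reads. Per the same methods, the authors also mapped to the rainbow trout genome. No genome was used for the comparisons reported here, so no positions are given.

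Counts were rounded and fitted over all sequences with edgeR 4.0.16 (filterByExpr with a minimum count of 10, TMM, quasi-likelihood test, Benjamini-Hochberg, threshold 0.05) in R 4.3.3. The procedure was also run on simulated counts, drawn with a single common spread for all sequences, and no result here rests on that run. Shares and ratios used the unrounded counts and exact permutation over fish. Alternatives were DESeq2 1.42.0, limma 3.58.1, other scalings, no filter, fractional counts, known miRNAs only, a replicate block and leaving out each fish. Overlap under 3 other scalings was added after the data were seen.

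Members, lists and the rule for named sequences (the top form of each letter and arm, those with no overlap, and let-7a forms with added bases) were chosen with earlier results of these data known. P-values set the difference between the groups against the spread between these fish.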

Additional observations from a re-analysis of the deposited data

How the results depend on the processing

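No let-7 sequence passed the adjusted threshold under any alternative, nor did a letter sum under those run for it (not fractional counts, limma or known miRNAs only). Sequences higher in SS fish at an unadjusted p under 0.05 numbered 1, and 0 with no filter, with the replicate block and with limma on log2 normalized reads plus 1 or plus 10 (0 to 1 leaving out a fish). Those lower numbered 4, or 3 with RLE, the authors' size parameters, DESeq2, no filter or limma plus 10. They numbered 1 with the block (1 to 4 leaving out a fish). With the block none of the 4 remained, and the 1 was fru-let-7i-p3_1ss9GA. The block is the number in the fish label, and only fish whose number occurs in both groups inform its difference. dre-let-7a was not among those called with RLE, the authors' size parameters, DESeq2, no filter or limma. Letter sums numbered 2, and 1 with no filter (let-7b) or with the block (let-7j) (1 to 3 leaving out a fish). Of sequences with every SS fish higher, 2 by normalized reads, 0 remained when counts were divided by mappable reads. Leaving out a fish moved the log2 fold change of the main-arm sum from -0.24 to -0.021 and of all let-7 from -0.25 to -0.025.

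The log2 arm ratio of all letters (-0.13) was 0.041 with the most abundant forms alone and -0.25 to 0.11 leaving out a fish, and that of let-7a was 0.11 with those forms. With the replicate block ssa-let-7e-3p_1ss22CT was at -0.084 and let-7e 3p at -0.049. Leaving out a fish turned these values, none of which was past a threshold, with the ranges given: the share of let-7d (-0.088 to 0.0071 points) and let-7i (-0.36 to 0.35 points), the log2 arm ratio of let-7a (-0.28 to 0.0096), let-7e (-0.22 to 0.37) and let-7i (-0.82 to 0.057), and the log2 fold change of dre-let-7i (-0.35 to 0.19), ssa-let-7e-3p_1ss22CT (-0.054 to 0.44), ssa-let-7h-3p (-0.29 to 0.095), let-7e 3p (-0.095 to 0.51), let-7h 3p (-0.33 to 0.15), let-7i 3p (-0.90 to 0.029) and let-7i of the main arm (-0.37 to 0.16). The causes were not tested.

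Numbers 4 and 6 occur in both groups, but nothing in the labels ties them to a dyad. The replicate block used these numbers, so its difference between SS and SD rests on 4A, 4B, 6A and 6B alone. The deviations of 4A and 4B correlated at 0.15 and those of 6A and 6B at 0.45 over 338 sequences, beside -0.37 to 0.30 for the 7 pairs of unlike number. With 3 fish a group, the exact test could not go below 0.1, and the scarcest forms rest on few counts.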

Other observations

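In vertebrate genomes several let-7 genes lie in clusters with miR-99 or miR-100 and miR-125. Whether the trout copies do was not determined here. The table holds 36 sequences of these miRNAs, of which the filter left 11. None passed the adjusted threshold of edgeR's quasi-likelihood test, 2 were lower and 0 higher in SS fish at an unadjusted p under 0.05 (4.14% and 6.51% of all tested sequences), and 10 had fitted log2 fold changes below 0 with a median of -0.29, beside 170 of 338 and -0.02 over all tested sequences. Every SS fish lay below every SD fish for 1 of the 11 and above for 0, where 7.69% and 10.7% of all tested sequences did. The 11 include near-identical forms of miR-99 and of miR-100. These counts and the median thus count the same miRNA more than once and are not separate results.

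dre-miR-100-5p was more abundant than all let-7 sequences together, with 323019, 487337 and 293171 normalized reads in SS fish and 275918, 378789 and 465049 in SD fish (log2 fold change -0.05 ± 0.25, SE). fru-miR-125b_R-1 had 9666, 13077 and 9824 in SS fish against 12011, 15275 and 17013 in SD fish, with only SS 6A inside the SD range (-0.47 ± 0.20, SE, edgeR's quasi-likelihood test, adjusted p = 0.45). dre-miR-99_R-1 had 3390, 6787 and 6808 against 5747, 6855 and 11637 (-0.54 ± 0.35, SE).

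The seed letters GAGGTAG occurred outside let-7 in 2 sequences of the table, away from bases 2 to 8. One was a predicted miRNA with 63 counts and the other ssa-miR-200a-3-5p with 20 counts.

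By sequence instead of name, 5 main-arm sequences with 199 counts were nearest to let-7f. They summed to 41.2, 61.7 and 16.8 normalized reads in SS fish and 26.8, 24.6 and 26.2 in SD fish.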
